A study of Helianthus annuus with 9 samples.

Results

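Intergenic assembled loci are stretches of the sunflower genome where sequencing reads were joined into transcripts that were matched to no annotated gene. They were taken here as the loci of the deposited assembly whose transcripts all carry class code u, the code for transcripts that overlap no reference gene, and whose identifier also stands in the mRNA table with the letter M in front. The rule found 2454 loci among the 33345 intergenic loci of the assembly file and among the 65535 features of the mRNA table. The mRNA and lncRNA tables both end at a spreadsheet row limit, so a locus missing from them may have been cut off. Of these, 2317 had a single exon in their only transcript and 137 had a transcript with more than 1 exon. Seeds of Helianthus annuus line L-1-OL-1, a sunflower line with a high oleic acid content, came from field-grown plants without treatment. There were 3 libraries each for day 7, for day 22 and for day 37, and the labels do not say from what event the days run. The 9 libraries are whole seeds of 1 line, so every level is a mean over all seed tissues, and fewer cells of a type cannot be told apart from less RNA per cell. Whether libraries of the same day stem from different plants is not stated, and the p-values therefore cover only the spread seen between libraries, which may be technical.

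A transcript assembler joins overlapping reads into transcripts and joins exons where reads cross a splice junction. A spliced transcript outside the annotation is often a gene that the annotation missed, or a long non-coding RNA. A transcript of a single exon carries no junction, so its ends rest on read coverage and no splice junction shows its strand. Developing oilseeds pass from a stage of cell division and growth through a filling stage, in which oil and storage protein are laid down, to maturation and drying. The transcripts present change with each of these stages. The files give no product, domain or protein for these loci, and no gene name is given to them here.

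Nearly all loci lay on 5 long sequences of the assembly file. These held 413 to 490 single-exon and 17 to 41 multi-exon loci each, counts that were not scaled to sequence length. The file covers 7 sequences and ends at 65536 lines, so loci on other chromosomes were not analysed here. It may also end inside the last long sequence, NC_035437.1, whose counts may then be too low. The remaining 7 loci lay on 2 short sequences, NC_007977.1 and NC_023337.1, which RefSeq lists as the plastid and mitochondrial genomes of sunflower. Single-exon loci had a median length of 1982 bases, with quartiles of 1314 and 3383. Multi-exon loci had a median span of 4451 bases, a median longest transcript of 2097 bases and a median of 3 exons. Among them 64 loci had 2 exons, 32 had 3 to 5 and 41 had 6 or more, up to 27. The single-exon loci were longer than the 13107 single-exon intergenic loci of the lncRNA table, whose median length was 838 bases. The sources used here do not say how the authors sorted loci into the mRNA and the lncRNA table.

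Most loci stood apart from known genes. Within 5 kb of an assembled locus at an annotated gene lay 212 single-exon loci (9.15%) and 21 multi-exon loci (15.3%), and the median distances were 52744 and 28805 bases. Only annotated genes with an assembled isoform are placed by the file, so a nearer gene may exist. The span of 36 single-exon and 4 multi-exon loci overlapped the span of such a gene locus in spite of their class code.

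The libraries of the late days were uneven. Summed over the mRNA table, FPKM came to between 542177 and 549131 on day 7, to between 228550 and 331317 on day 22 and to between 149870 and 277263 on day 37, with the lowest sum of each late day in replicate 3. FPKM counts fragments relative to transcript length and library size, so levels of loci of different length can be compared. Read counts were not used here, and the depth behind each value is unknown. Counts of changed loci are therefore also given without both late libraries numbered 3.

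Single-exon loci were nearly silent on day 7 and present in almost every late library. On day 7 between 58 and 59 of the 2317 loci reached 1 FPKM, and 1056 were listed at 0 in all 3 libraries. On day 22 the number at 1 FPKM or more was 1173, 1705 and 1979 in replicates 1, 2 and 3, and on day 37 it was 1828, 1982 and 2205. Their median level was 0 in each day 7 library. It was 1.01, 1.55 and 2.04 FPKM on day 22 and 1.74, 2.03 and 2.66 FPKM on day 37. All late medians thus lay above all day 7 medians, and within each late day replicate 1 was the lowest and replicate 3 the highest. The single-exon loci together made up 0.175% to 0.192% of the FPKM of the mRNA table on day 7, 1.7% to 4.52% on day 22 and 3.22% to 9.08% on day 37. Single-exon intergenic loci of the lncRNA table made a like step. Of these 1.59% to 1.69% reached 1 FPKM on day 7, 27.2% to 64.8% on day 22 and 52.4% to 82.4% on day 37. Annotated genes listed at 0 numbered 19942 to 20127 of 52513 on day 7 and 3465 to 4603 late. Their share at 1 FPKM or more was 36.2% to 36.4% on day 7 and 30.1% to 41.3% late.

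Multi-exon loci of the mRNA table did not share this step. On day 7 between 76 and 79 of the 137 reached 1 FPKM, on day 22 77 to 82 did and on day 37 65 to 70. Their median level was 1.19 to 1.25 FPKM on day 7, 1.3 to 1.51 on day 22 and 0.9 to 1.04 on day 37. Their upper end fell, since the level that 90% of the loci stayed under went from between 25.2 and 26 FPKM on day 7 to between 4.63 and 7.86 FPKM on day 37. Only 10 of the 137 were listed at 0 in all day 7 libraries. Multi-exon intergenic loci of the lncRNA table did rise. Of these 333 loci, 27.3% to 28.8% reached 1 FPKM on day 7 and 57.1% to 71.8% in the late libraries.

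**Figure D1:**
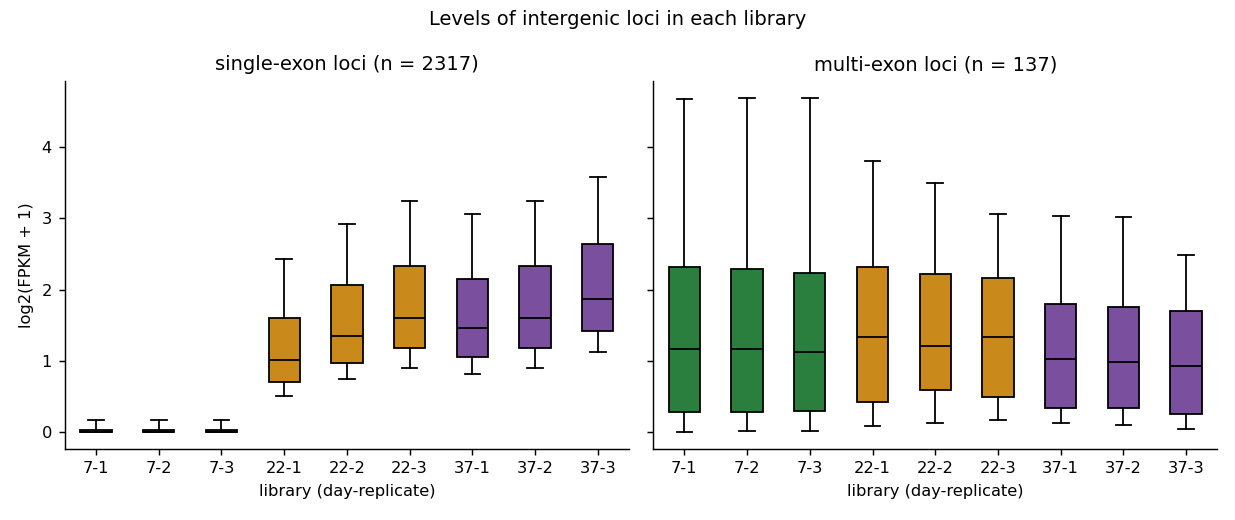
Level of the 2317 single-exon loci (left) and the 137 multi-exon loci (right) in each of the 9 libraries, as log2(FPKM + 1). Boxes span the quartiles, the line is the median and whiskers reach the 10th and 90th percentiles over loci. The single-exon boxes lie at 0 on day 7 and higher in every late library, while the multi-exon medians stay between 0.9 and 1.51 FPKM.

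Day 22 was compared with day 7 to ask which loci were turned on or off during the first interval. A feature was tested, with limma on log2(FPKM + 1), when 3 or more of the 9 libraries reached 1 FPKM, and a locus was called at an adjusted p under 0.05 and a log2 change of at least 1 in either direction. Of the single-exon loci 1959 passed this filter, and 1899 of these had no day 7 library at 1 FPKM. They entered through the late libraries alone and so had to lie higher there. The other 358 did not pass and were not tested. Single-exon loci that rose numbered 1576, which is 68% of all 2317 and 80.4% of those tested, and 12 fell. Over all 36401 tested mRNA features, 34.1% rose and 24.9% fell. The median log2 change was 1.40 for the tested single-exon loci and 0.09 for all tested features. With a pseudocount of 0.1 FPKM these medians were 3.92 and 0.11, with the filter at 5 FPKM 2.74 and −0.93, and with quantile normalization 0.67 and 0.02. Without the late libraries numbered 3, 1370 rose and 10 fell. With quantile normalization, which forces the libraries to 1 distribution, 694 rose and 10 fell.

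The largest rises began near or below 2 FPKM. MXLOC_001029 is a single-exon locus of 3447 bases on the plus strand of NC_035433.1, from 34202556 to 34206002, and its nearest placed gene, LOC110869965, lies 477064 bases away. It stood at 1.32, 1.47 and 1.40 FPKM on day 7, at 290.5, 495.33 and 671.12 on day 22 and at 483.65, 669.54 and 859.45 on day 37. Every late library was above every day 7 library, and the late days overlapped. It rose at day 22 by a log2 change of 7.58 ± 0.51 (SE; limma adjusted p 5.64e-08).

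MXLOC_011839, a single exon of 3011 bases on NC_035434.1 from 2597734 to 2600744, stood at 0.38, 0.39 and 0.67 FPKM on day 7. It reached 160.05, 137.8 and 256.29 FPKM on day 22 and 239.35, 250.59 and 364.92 on day 37, and rose by 6.93 ± 0.44 on the log2 scale at day 22 (limma adjusted p 3.50e-08). MXLOC_017683, on the minus strand of NC_035434.1 from 3848689 to 3850958, went from 0.717 ± 0.211 FPKM (SD, n = 3) to 91.7 ± 30.3 on day 22 and 135 ± 30.9 on day 37. MXLOC_006853, on NC_035433.1 from 24632566 to 24634078 and 2459 bases from LOC110944658, went from 2.09 ± 0.18 FPKM to 135 ± 41.2 and 171 ± 39.5. The late days overlapped for these 3 loci as well, and none was called between day 22 and day 37. In all 4 loci replicate 3 held the highest value of each late day.

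Most risen loci stayed far lower. Risen single-exon loci had a median mean level of 0.00667 FPKM on day 7, which became 2.15 on day 22 and 3.05 on day 37. Of the 2317 loci, 201 to 437 reached 5 FPKM in the libraries of day 22 and 369 to 604 in those of day 37. The late level was similar across lengths, with a median of the late mean FPKM of 1.78 in the 580 shortest loci and of 1.91 in the 579 longest. Of the shortest 337 were listed at 0 in all day 7 libraries, and of the longest 189.

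A small group of single-exon loci was already transcribed on day 7. In all 3 day 7 libraries 53 loci reached 1 FPKM. At day 22, 15 of them rose and 12 fell, and their median log2 change was 0.19. Of all tested features 34.1% rose and 24.9% fell, with a median of 0.09. The group of 53 was formed on the day 7 values, so its numbers describe it and were not tested.

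MXLOC_017497 is a short single exon of 439 bases on NC_035434.1, from 178815953 to 178816391. It stood at 50.66, 47.13 and 48.06 FPKM on day 7, at 0, 0.21 and 0 on day 22 and at 0 in all 3 libraries of day 37. At day 22 it fell by 5.54 ± 0.19 (SE) in log2(FPKM + 1), and limma's adjusted p was 4.13e-10. MXLOC_030616, 536 bases on NC_035435.1 from 48330655 to 48331190, stood at 32.84, 35.89 and 37.09 FPKM on day 7 and between 0.08 and 0.37 FPKM in all 6 late libraries. Both were thus present on day 7 and nearly absent later, with no overlap between day 7 and the late days.

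A pair of neighbours held the highest day 7 levels among the single-exon loci. MXLOC_013806 (957 bases, from 69759564 to 69760520) and MXLOC_013805 (970 bases, from 69743232 to 69744201) lie on the plus strand of NC_035434.1, 15363 bases apart, with the nearest placed gene 276517 bases from MXLOC_013805. MXLOC_013806 stood at 215.03, 254.73 and 257.51 FPKM on day 7, at 148.86, 161.86 and 77.66 on day 22 and at 83.62, 73.67 and 63.92 on day 37. MXLOC_013805 stood at 99.52, 125.53 and 134.72 FPKM on day 7, at 23.2, 21.59 and 14.11 on day 22 and at 17.89, 14.83 and 8.53 on day 37. Both had their highest values on day 7, but they left it by different amounts. MXLOC_013805 fell by 2.57 ± 0.44 on the log2 scale at day 22 (limma adjusted p 1.26e-04), and the change of MXLOC_013806 was −0.97 ± 0.52 with an adjusted p of 0.103. MXLOC_013806 fell from day 7 to day 37 by 1.71 ± 0.52 (adjusted p 0.00726), a call that was lost with quantile normalization and with median-of-ratios scaling.

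Other single-exon loci were well expressed in every library. MXLOC_023321, 6428 bases on NC_035434.1 from 179346493 to 179352920, held 35.2 ± 4.01 FPKM on day 7 (SD, n = 3), then 25.9 ± 6.63 and 36.1 ± 14.4 on the late days. No comparison called MXLOC_023321 as deposited, but its log2 change from day 7 to day 37 depended on the scaling. It was −0.05 in the deposited values, 1.05 after median-of-ratios scaling and 1.47 after quantile normalization, and both scalings called it as risen. MXLOC_051714 on NC_035437.1, from 123580524 to 123583192, went from 31.5 ± 2.55 FPKM through 21.7 ± 8.12 to 10.7 ± 0.827, and fell by 1.47 from day 7 to day 37 as deposited (adjusted p 0.00281), a direction that turned to 0.03 with quantile normalization. Median-of-ratios scaling lost the call.

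**Figure D2:**
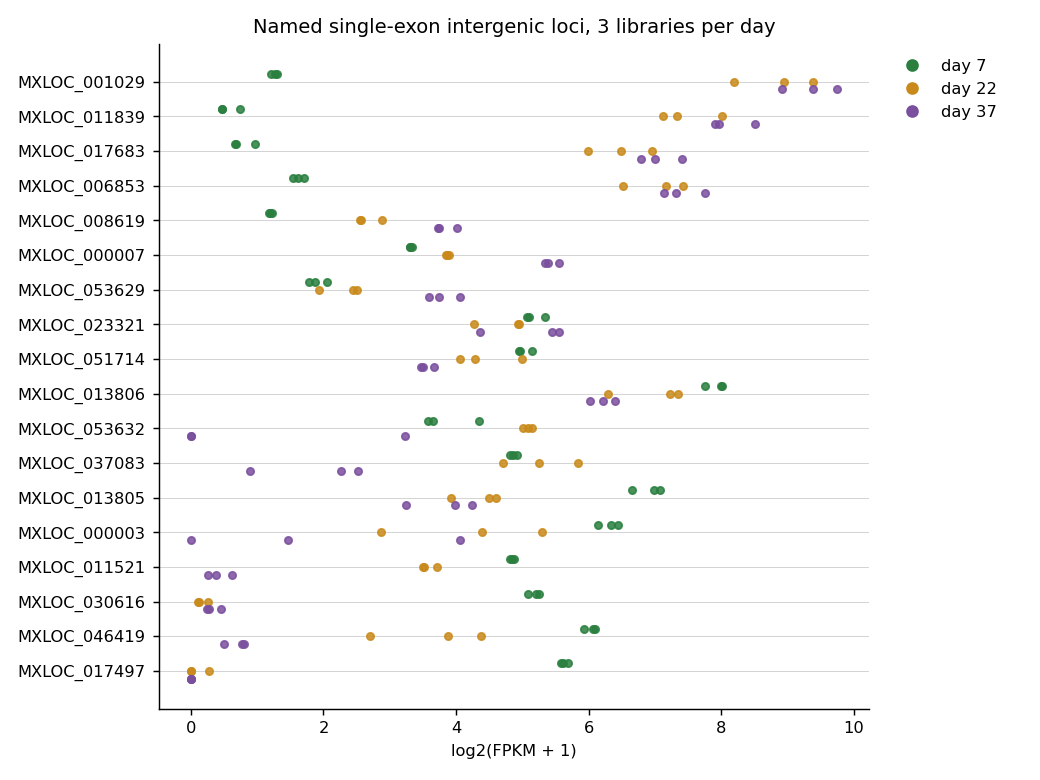
Level of each named single-exon locus in the 9 libraries, as log2(FPKM + 1), with 1 point per library and the day in colour. Loci are ordered by the difference of day 37 and day 7. The top 4 have all late libraries to the right of day 7, and MXLOC_017497 and MXLOC_030616 near the bottom have all late libraries near 0.

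Day 37 was compared with day 22 to follow the loci through the second interval. Single-exon loci hardly crossed the threshold, with 3 called as risen and 9 as fallen among the 1959 tested, against 0.843% risen and 16.6% fallen of all tested features. At an unadjusted limma p under 0.05, 505 single-exon loci were higher and 22 lower on day 37 (25.8% and 1.12%). Of all tested features 13% were higher and 28.3% lower. The median log2 change was 0.35 for the tested single-exon loci and 0.01 for all tested features. Another scaling moved both, to 0.88 and 0.42 with median-of-ratios scaling and to 0.86 and 0.27 with quantile normalization. The numbers of risen and fallen single-exon loci were then 18 and 7 with median-of-ratios scaling, and 112 and 9 with quantile normalization. Without the late libraries numbered 3 they were 6 and 10, and without day 22 replicate 3, 17 loci rose.

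Of the 3 risen loci 2 lay on the long sequences. MXLOC_008619, 7584 bases on the minus strand of NC_035433.1 from 81795285 to 81802868 and inside the span of the locus of LOC110916958, stood at 1.34, 1.26 and 1.29 FPKM on day 7, at 4.88, 4.9 and 6.4 on day 22 and at 12.27, 12.37 and 15.21 on day 37. The 3 days did not overlap and each step was called, with a log2 change of 1.47 ± 0.25 and then of 1.16 ± 0.25 (limma adjusted p 0.00351). MXLOC_053629 on NC_035437.1, from 175418233 to 175420343, stood at 2.75 ± 0.352, 3.99 ± 1.02 and 13 ± 2.36 FPKM (SD, n = 3), a log2 change of 1.50 ± 0.28 at the second step. The third, MXLOC_000007, lies on the plastid sequence and is given with the organelle loci. The calls of MXLOC_008619 and MXLOC_000007 were lost in a fit of the 6 late libraries alone, with adjusted p-values of 0.09 and 0.053.

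The named loci that fell in the second interval had been expressed on both earlier days. MXLOC_011521, 699 bases on NC_035433.1 from 148077189 to 148077887, stood at 28.23, 27.16 and 27.78 FPKM on day 7, at 12.07, 10.31 and 10.46 on day 22 and at 0.19, 0.54 and 0.3 on day 37. It fell by 3.16 ± 0.27 at this step (limma adjusted p 2.44e-06), and the days did not overlap. MXLOC_037083 on NC_035436.1, from 51877198 to 51877776, held 28.1 ± 1.16 FPKM on day 7 and 39.4 ± 15.7 on day 22 and then fell to 3.13 ± 2.03 FPKM on day 37 (SD, n = 3). MXLOC_053632 on NC_035437.1, from 175467700 to 175468298, stood at 34.46, 31.11 and 33.14 FPKM on day 22 and at 8.41, 0 and 0 on day 37, so that replicate 1 alone of day 37 was above 0. MXLOC_053632 lies 47357 bases from MXLOC_053629, and the former fell in the interval in which the latter rose.

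From day 7 to day 37, 1899 single-exon loci rose and 22 fell, against 39.4% risen and 38.8% fallen of all tested features. The median log2 change was 1.75 for the tested single-exon loci and −0.32 for all tested features, and with median-of-ratios scaling 2.18 and 0.37. Without the late libraries numbered 3, 1833 rose and 18 fell. With median-of-ratios scaling 14 fell. The late libraries again admitted most of these loci to the test. MXLOC_046419, 647 bases on NC_035436.1 from 144567734 to 144568380, was among the most strongly fallen, from 60.25, 67.23 and 65.92 FPKM on day 7 through 19.88, 13.69 and 5.53 on day 22 to 0.7, 0.74 and 0.41 on day 37. It fell by 5.34 ± 0.41 over the time course (limma adjusted p 9.71e-08) and was called at both steps.

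Among multi-exon loci rises and falls were nearly balanced at day 22. Of the 137 loci 111 passed the filter, 34 of them with no day 7 library and 20 with no late library at 1 FPKM. At day 22, 33 rose and 31 fell, which is 29.7% and 27.9% of the loci tested, beside 34.1% risen and 24.9% fallen of all tested features. From day 22 to day 37 none was called as risen and 16 fell (14.4% of those tested), beside 0.843% and 16.6%. At an unadjusted limma p under 0.05, 9 were higher and 33 lower on day 37 at this step (8.11% and 29.7%), beside 13% and 28.3% of all tested features. From day 7 to day 37, 30 rose and 48 fell (27% and 43.2% of those tested), beside 39.4% and 38.8%. Without the late libraries numbered 3 the counts of risen and fallen loci were 32 and 30, then 3 and 18, and then 28 and 46.

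The split of these calls moved with the scaling. With quantile normalization the risen and fallen loci numbered 17 and 30 at day 22, 6 and 14 at the second step, and 24 and 44 over the time course. With median-of-ratios scaling the pairs were 33 and 22, 4 and 13, and 34 and 33. The median log2 change of the tested multi-exon loci was −0.28, −0.12 and −0.59 in the 3 comparisons as deposited, and −0.01, 0.15 and 0.03 with median-of-ratios scaling, so its sign turned at the second step and over the time course.

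**Figure D3:**
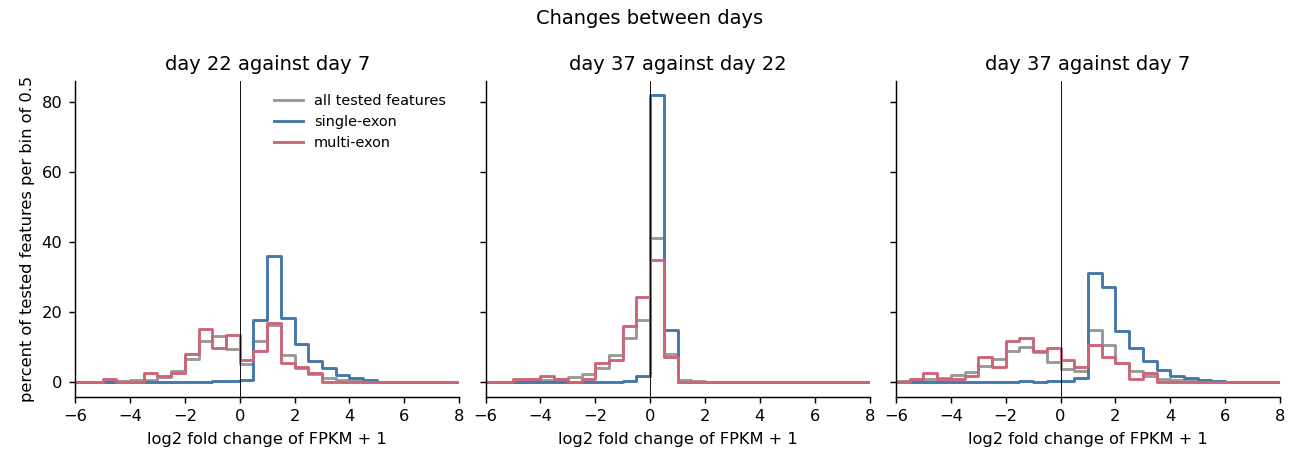
Share of tested features by log2 fold change of FPKM + 1, in bins of 0.5, for single-exon loci (n = 1959), multi-exon loci (n = 111) and all tested features of the mRNA table (n = 36401) in the 3 comparisons. Single-exon loci lie to the right of 0 in both comparisons with day 7 and close to 0 at the second step, while multi-exon loci spread over both sides with medians of −0.28, −0.12 and −0.59.

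Against day 7, more loci with 2 exons rose than fell, and more loci with 3 or more exons fell than rose. Of the 56 tested loci with 2 exons, 26 rose and 7 fell at day 22, with a median log2 change of 0.83. Of the 24 with 3 to 5 exons, 3 rose and 10 fell, and of the 31 with 6 or more exons, 4 rose and 14 fell, with medians of −0.99 and −0.85. From day 7 to day 37, 23 loci with 2 exons rose and 14 fell, while 3 loci with 6 or more exons rose and 20 fell. On day 7 the median of the mean level was 0.653 FPKM for loci with 2 exons and 1.71 FPKM for those with 6 or more. Late, the order was the other way, with 1.62 and 0.59 FPKM. Of all tested features 34.1% rose and 24.9% fell at day 22, and 39.4% and 38.8% from day 7 to day 37. Of the 111 tested multi-exon loci, 34 passed the filter with no day 7 library at 1 FPKM and 20 with no late library. These had to lie higher in the libraries that admitted them, and their split over the exon classes was not counted. The counts therefore only describe the loci, and the difference between exon classes was not tested.

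On day 7 the most abundant of the 2454 loci was spliced. MXLOC_028356 has 2 exons and a transcript of 1455 bases on the plus strand of NC_035435.1, from 148735166 to 148736728, 41218 bases from LOC110932475. It stood at 1624.36, 1680.09 and 1718.24 FPKM on day 7, at 1021.58, 761.33 and 380.27 on day 22 and at 662.37, 473.38 and 110.35 on day 37. Day 7 was above all late libraries, and the late days overlapped, each with its lowest value in replicate 3. The log2 change from day 7 to day 37 was −2.36 ± 0.78 (SE; limma adjusted p 0.0122), and −1.58 without both late libraries numbered 3. Quantile normalization gave −0.88 and lost the call. The log2 change of −1.33 at day 22 had an adjusted p of 0.133, but 0.0062 in a fit of the day 7 and day 22 libraries alone, and was 0.26 with quantile normalization.

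Several spliced loci were high on day 7 and close to 0 later. MXLOC_039390 has 3 exons on the plus strand of NC_035436.1, from 126913450 to 126915996, and lies 4864 bases from LOC110937042 on the same strand. It stood at 50.7, 47.62 and 51.88 FPKM on day 7, at 1.17, 1.15 and 0.84 on day 22 and at 0.2, 0.09 and 0.23 on day 37. The 3 days did not overlap, and it fell by 4.64 ± 0.22 at day 22 (limma adjusted p 2.69e-09). MXLOC_046368, of 2 exons and 3645 bases of transcript on NC_035436.1 from 142995604 to 142999384, went from 14.9 ± 0.35 FPKM to 0.56 ± 0.123 and 0.197 ± 0.0493 (SD, n = 3). MXLOC_011450 on NC_035433.1, from 146650291 to 146651063, went from 8.43 ± 0.741 FPKM to 0.0233 and 0.0533, with 3 of the 6 late libraries listed at 0.

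Other spliced loci fell mainly or again in the second interval. MXLOC_031752 has 11 exons on the minus strand of NC_035435.1, from 82132921 to 82141208. It stood at 60.48, 61.39 and 64.51 FPKM on day 7, at 81.1, 64.27 and 44.71 on day 22 and at 3.17, 1.84 and 0.69 on day 37. Day 7 and day 22 overlapped, and all day 37 libraries lay below both. Its log2 change was −0.01 ± 0.43 at the first step and −4.53 ± 0.43 at the second (limma adjusted p 5.17e-06). With quantile normalization the first change was 1.07 and called as a rise. MXLOC_043850, of 2 exons on NC_035436.1 from 67238788 to 67241264, stood at 42.6 ± 0.371, 28.2 ± 10.2 and 0.667 ± 0.129 FPKM (SD, n = 3), and was called at the second step alone. MXLOC_018236 has 3 exons on NC_035434.1, from 18934849 to 18939079, within the span of the locus of LOC110911382, and fell from 207 ± 11.6 FPKM through 71.5 ± 23.4 to 7.19 ± 3.81. Its call at the first step was lost with quantile normalization and without day 22 replicate 3.

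A rise followed by a fall was called for 6 multi-exon loci (5.41% of those tested), beside 2.81% of all tested features. In MXLOC_034868, of 2 exons on the minus strand of NC_035435.1 from 163360315 to 163367121 and within the span of a locus joining LOC110930938 and LOC110930941, the 3 libraries stood at 2.68, 2.01 and 2.86 FPKM on day 7. They reached 16.42, 13.65 and 16.86 FPKM on day 22 and then 0.16, 0.08 and 0.09 on day 37. No 2 days overlapped. The log2 changes were 2.25 ± 0.21 and then −3.90 ± 0.21, with limma adjusted p-values of 8.34e-07 and 2.11e-07. Of the other tested multi-exon loci, 27 rose (24.3% of those tested) and 27 fell (24.3%) at the first step and were not called again. A further 4 fell at both steps (3.6%), 6 fell at the second step alone (5.41%) and 41 were called at neither (36.9%). The shares of all tested features were 31%, 18.9%, 5.92%, 7.9% and 32.6% in turn. Of the tested single-exon loci 1573 rose at the first step alone (80.3%) and 365 were called at neither (18.6%). Another 2 rose and fell (0.102%, beside 2.81% of all tested features) and 1 rose at both steps (0.051%, beside 0.297%).

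The 33 spliced loci that rose at day 22 had a median mean level of 0.11 FPKM on day 7, followed by 2.5 on day 22 and 2.24 on day 37. The largest rise at day 22 was that of MXLOC_038728, which has 9 exons on the plus strand of NC_035436.1, from 106925992 to 106931384. It stood at 0.55, 0.63 and 0.59 FPKM on day 7, at 13.04, 10.3 and 7.31 on day 22 and at 10.1, 7.43 and 1.97 on day 37. The log2 change at day 22 was 2.79 ± 0.41 (limma adjusted p 3.40e-05), and replicate 3 was the lowest of both late days. MXLOC_007471, of 2 exons on NC_035433.1 from 50312448 to 50319183, and MXLOC_040124, of 2 exons on NC_035436.1 from 145965764 to 145985549, had the opposite order of late libraries. MXLOC_007471 stood at 4.47, 5.83 and 7.8 FPKM on day 22 and at 7.19, 8.69 and 9.75 on day 37, after 0.01 to 0.05 on day 7. MXLOC_040124 had 0 FPKM listed for every day 7 library and stood at 2.11, 6.51 and 6.96 FPKM on day 22 and at 6.04, 8.07 and 10.12 on day 37. MXLOC_043869 on NC_035436.1, from 67557784 to 67559883, went from 0.01 FPKM to 4.07 ± 1.08 and 10.6 ± 6.9 (SD, n = 3), and its day 37 libraries ranged from 3.23 to 16.89 FPKM. Without the late libraries numbered 3 its second step, 0.98 with all libraries, was 1.46 and called as a rise.

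The loci with most exons were of modest level. MXLOC_047496 has 27 exons and 6 isoforms on the minus strand of NC_035436.1, from 173778006 to 173791895. Its level was 2.79 ± 0.133, 4.6 ± 0.809 and 2.92 ± 0.183 FPKM on the 3 days in turn (SD, n = 3), and no comparison called it. MXLOC_033461 has 23 exons on the minus strand of NC_035435.1, from 130845979 to 130852011, 1563 bases from LOC110930079 on the same strand. It stood at 10.52, 8.12 and 6.09 FPKM on day 7, at 3.28, 2.27 and 2.7 on day 22 and at 1.5, 1.73 and 0 on day 37. Day 7 lay above all late libraries, and it fell by 1.28 ± 0.35 at day 22 (limma adjusted p 0.00422), a call that was lost with a pseudocount of 0.1, with quantile normalization and with median-of-ratios scaling.

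**Figure D4:**
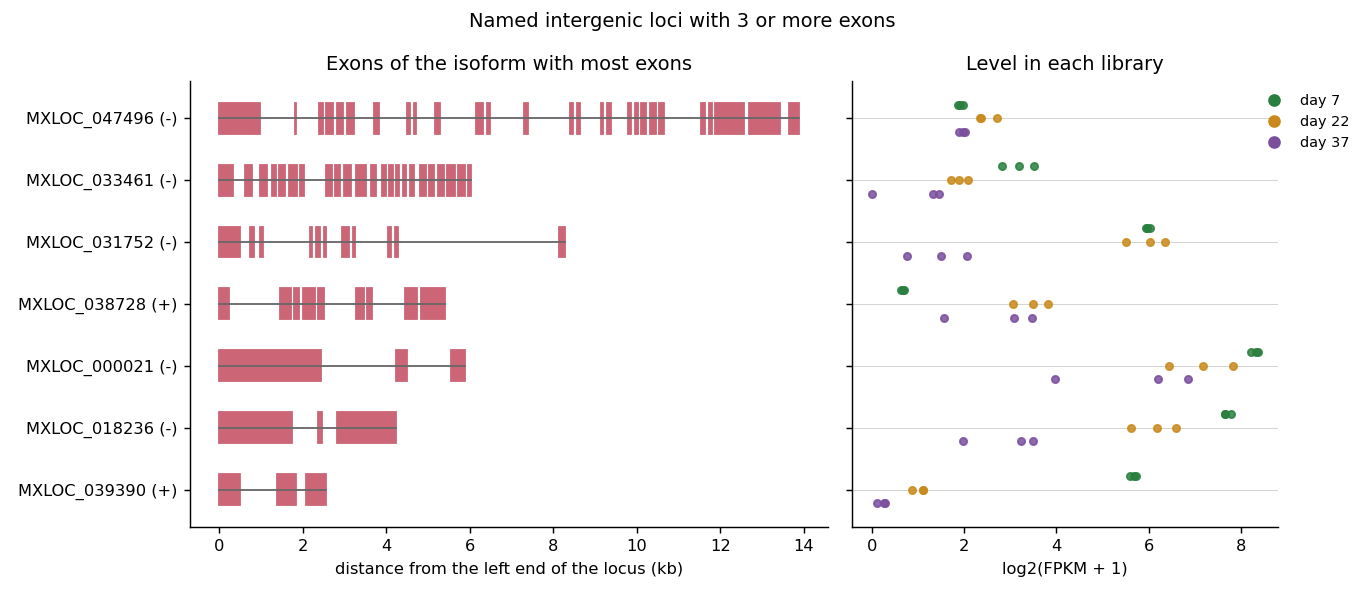
Exon structure (left, distance in kb from the left end of the locus, strand in brackets, boxes are exons of the isoform with most exons) and level in each of the 9 libraries (right, log2(FPKM + 1), 1 point per library) of the named loci with 3 or more exons. MXLOC_039390 is high on day 7 alone, MXLOC_031752 is high on day 7 and day 22, and MXLOC_038728 is low on day 7 alone.

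Plastid and mitochondrial sequences held 7 loci. No assembled locus on these 2 sequences carries an annotated gene, so class code u cannot show that these 7 lie between genes. On the plastid sequence the single-exon locus MXLOC_000007, of 13807 bases from 113083 to 126889 on the plus strand, stood at 8.86, 8.9 and 9.13 FPKM on day 7, at 13.92, 13.44 and 13.56 on day 22 and at 41.09, 39.44 and 45.93 on day 37. The 3 days did not overlap. Its log2 change at the second step was 1.56 ± 0.34 (limma adjusted p 0.00413). MXLOC_000014 on the opposite strand, from 117502 to 126854, was chosen after its values were seen and stood at 10.2 ± 0.47, 11.4 ± 1.12 and 21.4 ± 5.66 FPKM (SD, n = 3). Reads of such a pair cannot be told apart without strand, and the sources used here do not state that the counting used it.

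MXLOC_000003, 785 bases on the plastid sequence from 72277 to 73061, went the other way, from 69.73, 86.43 and 80.11 FPKM on day 7 through 38.13, 20.03 and 6.27 on day 22 to 15.67, 1.75 and 0 on day 37. It fell by 4.47 ± 0.84 over the time course (limma adjusted p 2.20e-04). Its second step of −2.34 was called when replicate numbers entered as a block (adjusted p 0.00248, and 0.0565 without the block). The spliced plastid loci were called in no comparison as deposited. MXLOC_000002, from 16416 to 30011, stood at 114 ± 4.58, 70.7 ± 17.8 and 107 ± 47.7 FPKM, and MXLOC_000008, from 149690 to 151103, at 194 ± 22.4, 82.5 ± 29.8 and 201 ± 142 FPKM (SD, n = 3). With quantile normalization the log2 changes of these loci from day 7 to day 37, −0.21 and −0.31 as deposited, became 1.27 and 1.04 and were called as rises, and with median-of-ratios scaling they were 0.92 and 0.82 and not called. At the second step MXLOC_000002, at 0.50 as deposited, was called as a rise with median-of-ratios scaling (1.22). MXLOC_000008, at 0.98, was called as a rise there without the late libraries numbered 3 (1.48, limma adjusted p 0.000824), with median-of-ratios scaling (1.69) and with quantile normalization (1.23). Without those libraries its first step, −1.28 as deposited, was called as a fall (limma adjusted p 0.00197).

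Both mitochondrial loci were spliced and fell from day 7 to day 37. MXLOC_000019, of 2 exons from 227138 to 230652, stood at 338.66, 437.88 and 443.95 FPKM on day 7, at 279.79, 232.48 and 151.64 on day 22 and at 156.58, 107.02 and 7.57 on day 37. MXLOC_000021, on the minus strand from 213185 to 225207, went from 316 ± 17.9 FPKM through 152 ± 70.1 to 67.2 ± 50.3. Their log2 changes over the time course were −2.94 ± 0.90 and −2.63 ± 0.72, with limma adjusted p-values of 0.00766 and 0.00371. Quantile normalization lost the call of MXLOC_000019. Their second steps of −2.03 and −1.48 were called only with the replicate block, with adjusted p-values of 0.00788 and 0.0388 against 0.108 and 0.136 without it. Replicate 3 was the lowest library of both late days for each.

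Late libraries of the same day differed in a shared order. Replicate 3 was above replicate 1 on both late days in 2168 of the 2317 single-exon loci (93.6%), in 50 of the 137 multi-exon loci (36.5%) and in 31.1% of the annotated genes of the mRNA table. The reverse order held for 30 single-exon loci, for 52 multi-exon loci (38%) and for 39.2% of annotated genes. In the lncRNA table, 80.1% of the single-exon intergenic loci had replicate 3 above replicate 1 on both late days.

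The single-exon loci also moved by nearly the same factor. Among the 1165 at 1 FPKM or more in both libraries, the log2 ratio of replicate 3 to replicate 1 of day 22 had a median of 0.92 and quartiles of 0.73 and 1.10. For annotated genes the median was −0.80 with quartiles of −1.10 and −0.38, and for multi-exon loci −0.38 with quartiles of −0.78 and 0.21. On day 37 the quartiles were 0.46 and 0.77 for single-exon loci, −2.13 and 0.38 for annotated genes and −1.40 and 0.64 for multi-exon loci. Between replicates 3 and 1 of day 7 the median was 0.03 for the 54 single-exon loci that reached 1 FPKM in both and 0.02 for annotated genes. The loci of a class share their libraries, so these ratios were not tested, and the part of the uneven libraries in the rises of single-exon loci was not tested.

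**Figure D5:**
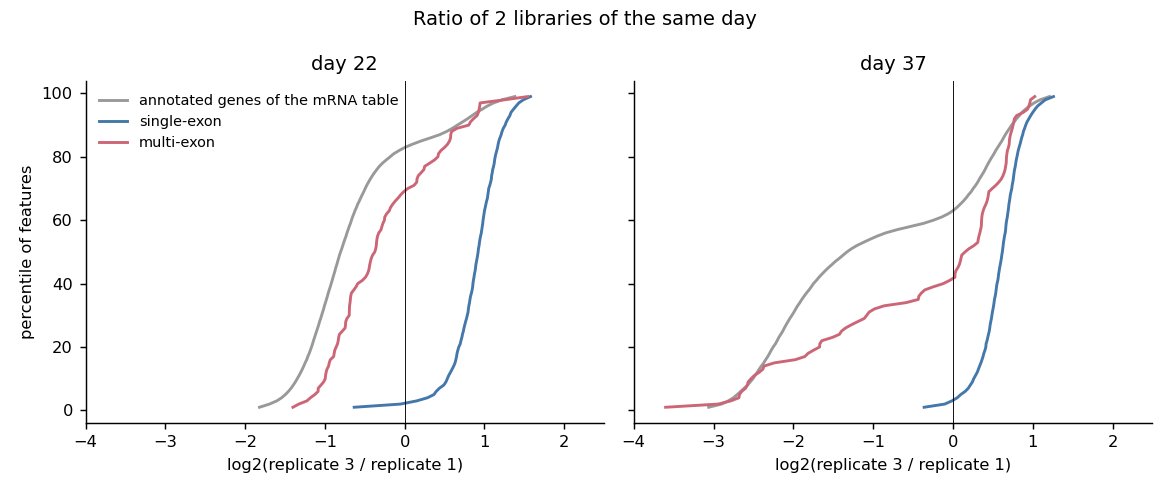
Cumulative distribution over features of the log2 ratio of replicate 3 to replicate 1 on day 22 (left) and day 37 (right), for features at 1 FPKM or more in both libraries. Single-exon loci form a steep curve to the right of 0, with medians of 0.92 and 0.62, while multi-exon loci and annotated genes spread over both sides.

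The calls of single-exon loci were similar at all distances from a placed gene. However, 1899 of the 1959 tested passed the filter through the late libraries alone, which favoured a rise at any distance. These counts therefore cannot show whether distance or a neighbouring gene matters. At day 22, 131 of the 172 tested within 5 kb rose (76.2%), 270 of 333 at 5 to 20 kb (81.1%) and 1175 of 1451 farther away (81%). Of all tested features 34.1% rose. For 78 of the loci within 5 kb the neighbouring gene was also tested in the mRNA table. Of these genes 26 rose and 17 fell at day 22, and 23 loci rose beside a risen gene, 15 beside a fallen gene and 25 beside a gene that was not called. Among multi-exon loci there were 9 such pairs, in which 3 loci fell beside a fallen gene and 3 rose beside a gene that was not called.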

How the data were processed

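Per the labels' protocols, ribosomal RNA was removed from total seed RNA before sequencing on BGI500. The submitters' processing notes name DESeq2 1.4.5, RSEM 1.2.12, HISAT2 2.0.4 and Bowtie2 2.2.5 without their roles. Levels in the mRNA and lncRNA tables were deposited as FPKM, per the file headers, with 2 decimals. Circular RNA levels were deposited as a scaled signal whose unit the file headers do not give. Exon starts and ends are other values of the deposited assembly, whose second column names Cufflinks; positions count from 1. The sources used here name no genome build. No genome of that build was used, so no sequence is printed.

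A locus was multi-exon if any of its transcripts had more than 1 exon. Gene symbols are LOC followed by the ID in the file. The whole mRNA table was fitted with limma 3.58.1 in R 4.3.3 (trended, robust empirical Bayes; Benjamini-Hochberg adjustment) as log2(FPKM + 1), with all 9 libraries in 1 fit, and features under 1 FPKM in 7 or more libraries were left out. Fold changes on this scale understate changes of low loci. The fit was tested on simulated data. Python 3.11.15 with numpy 2.4.6, pandas 2.3.3 and matplotlib 3.10.9 did the rest.

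The members and lists were chosen with earlier results of these data known. Loci named were, per exon class, the 3 risen and 3 fallen with the largest change and no overlap of libraries in each comparison, the 3 highest on each day, the 3 with the highest minimum, and the 2 with most exons. Same-numbered libraries of day 22 and day 37 deviated together, with correlations over 36401 features of 0.77, 0.15 and 0.78 for replicates 1, 2 and 3. With day 7 the correlations lay between −0.06 and 0.06. The labels do not say that the libraries are paired. The main fit did not pair them, and the replicate number as a block was run as an alternative.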

Additional observations from a re-analysis of the deposited data

How the results depend on the processing

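Over the 36 named loci, 64 changes were called, and 53 of these kept their direction and call under every other setting that gave a value. The call of 11 was lost under at least 1. Tested features were kept when libraries were left out. The replicate block gave 1576 risen and 12 fallen single-exon loci at day 22, 3 and 10 at the second step, and 18 fallen multi-exon loci at the second step; it moved no count by over 1.5 times, ended no call of a named locus and added 4, those of MXLOC_000003, MXLOC_000019 and MXLOC_000021 at the second step and of MXLOC_000008 at day 22 (−1.28, limma adjusted p 0.0438 against 0.0997). The block in a fit of the late days alone, chosen after seeing the data, gave 3 and 10 single-exon and 0 and 18 multi-exon loci. With the filter at 5 FPKM fewer loci were tested, and at day 22 414 single-exon loci rose, with 9 multi-exon loci risen and 16 fallen; at the second step 9 multi-exon loci fell; over the time course 416 single-exon loci rose, with 7 multi-exon loci risen and 25 fallen. With quantile normalization 694 single-exon and 17 multi-exon loci rose at day 22, and 112 and 6 at the second step. Median-of-ratios scaling gave 18 single-exon and 4 multi-exon rises at the second step and 14 single-exon falls over the time course. A pseudocount of 0.1 gave 15 single-exon and 1 multi-exon rises and 25 multi-exon falls at the second step. Without the late libraries numbered 3, 6 single-exon and 3 multi-exon loci rose at that step, and with the late libraries alone 1 single-exon locus rose. When single libraries were left out, single-exon rises numbered 1370 to 1781 at day 22, 3 to 17 at the second step and 1833 to 1900 over the time course, and multi-exon rises at the second step 0 to 3, with 3 without day 37 replicate 3. Changes from day 7 to day 37 that turned with quantile normalization were those of MXLOC_000002 (1.27), MXLOC_000008 (1.04), MXLOC_023321 (1.47) and MXLOC_051714 (0.03), those of MXLOC_023321 (1.05), MXLOC_000002 (0.92) and MXLOC_000008 (0.82) turned with median-of-ratios scaling, the last 2 without a call, and the day 22 change of MXLOC_031752 became 1.07 with quantile normalization. Other named changes that turned in sign with a scaling, or without the late libraries numbered 3, were called neither as deposited nor then. The causes were not tested. Read depth is unknown, so no limit of detection can be given.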

Other observations

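The 10 intergenic loci that stood in both tables, all of them multi-exon with 2 or more transcripts, often had different time courses in each. They were chosen for this property and their values in the lncRNA table were not tested here. MXLOC_026551, on NC_035435.1 from 104524964 to 104635760, was listed at 0 in all day 7 libraries of the mRNA table, at 0.857 ± 0.188 FPKM on day 22 and at 1.12 ± 0.429 on day 37 (SD, n = 3), while its entry in the lncRNA table stood at 345.84, 296.98 and 333.19 FPKM on day 7 and between 0 and 0.2 FPKM in all late libraries. MXLOC_003909, of 5 exons on NC_035433.1 from 112297400 to 112307787, was at 0.537, 2.32 and 3.22 FPKM over the days in the mRNA table and at 7.38, 0.593 and 0.297 FPKM in the lncRNA table. MXLOC_035176, of 13 exons on NC_035436.1 from 851371 to 859434, was at 2.48, 0.0733 and 0.123 FPKM in the mRNA table and at 0.127, 0.683 and 1.26 FPKM in the lncRNA table. In the mRNA table MXLOC_003909 rose at day 22 (log2 change 1.10, limma adjusted p 7.86e-05) and MXLOC_035176 fell (−1.70, adjusted p 3.92e-08). MXLOC_054820, on NC_035437.1 from 202396016 to 202402385, went the same way in both, from 1.63 to 6.19 and 6.62 FPKM in the mRNA table and from 0 to 29.7 and 38.8 FPKM in the lncRNA table.

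Many single-exon loci had a partner on the opposite strand. Of the 2317 loci, 1073 (46.3%) overlapped a single-exon intergenic locus of the other strand, which covered a median of 89.4% of the locus. Among the 137 multi-exon loci 24 did (17.5%), with a median of 21.8% of a span that includes introns. These medians are therefore unlike measures. Counted from each single-exon locus, there were 1144 such overlaps. Of these, 380 had the partner in the lncRNA table, 94 in the mRNA table and 670 in neither, as far as these tables reach. The 94 are the 47 pairs with both loci in the mRNA table, each counted from both sides. In 36 of these 47 pairs the mean late levels lay within a factor of 2 of each other. Loci that do not overlap were not compared in this way. Without strand the reads of such a pair cannot be told apart, so the likeness may come from shared reads, which was not tested.

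Circular RNA form when a splice site joins to one upstream of it. Of the 1093 circular RNA listed on the 7 sequences, 4 lay inside an intergenic locus of the mRNA table, and other loci were not counted. In the 3 that lay in multi-exon loci both ends coincided with exon ends, with a tolerance of 1 base at the start. All 4 were seen almost entirely on day 7. The day 7 share of all circular RNA was not set beside them, so this cannot be read as particular to these loci. In MXLOC_012728, a locus of 4 exons on NC_035434.1, the circular RNA from 26858611 to 26859057 had a scaled signal of 0, 159 and 58 in the day 7 libraries, of 21 in day 37 replicate 1 and of 0 in the other late libraries. In MXLOC_009846, a locus of 20 exons on NC_035433.1, the circular RNA from 111881099 to 111881426 had a signal of 0, 29 and 43 on day 7 and of 0 later. In MXLOC_028370 and in the single-exon locus MXLOC_007074 the circular RNA was seen in 1 day 7 library, with a signal of 29 and of 28. These loci were chosen after their values were seen.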
